A study of Mus musculus with 9 samples.

Results

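The genes described here are 10 genes that respond to cell density, cell shape and the actin cytoskeleton: Ccn1, Ccn2, Ankrd1, Amotl2, Lats2 and Ajuba, known targets or regulators of the coactivator YAP, and Srf, Vcl, Tagln and Actb, which belong to the serum response factor (SRF) and actin circuit. They were chosen by name, and 9 of the 10 have a row in a count table of 16636 genes. Ankrd1, a muscle-associated nuclear protein widely used as a YAP reporter, has no row there, and every gene in the table has at least 9 counts summed over its libraries. 8 of the 10 passed the filter on low counts, among 14246 genes tested. Tagln did not.

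RNA was sequenced from E14 mouse embryonic stem cells, a wildtype line, in 3 groups of 3 libraries. All groups were grown on fibronectin in naive 2i/LIF medium, so that the MEK inhibitor PD0325901, the GSK3 inhibitor CHIR99021, serum replacement and the cytokine LIF were present in the untreated controls too. The untreated cells received no siRNA, the siLuc cells received a control siRNA against luciferase, and the siStag3 cells received siRNA against the cohesin subunit Stag3. siRNA cells were transfected with a lipid reagent at seeding and again the next day, and were collected after 48 hours. The labels give a seeding number for the siRNA cells and no measure of cell density at harvest in any group. All libraries come from 1 line. Column names add a set number and an experiment number, whose meaning the labels do not give. Each group holds 2 Set 1 libraries and 1 Set 3 library, and a library is called here by its group with both numbers. The Set 3 library is of experiment 5 in untreated and siStag3 and of experiment 1 in siLuc.

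In cells that are spread and sparsely packed, YAP and its paralog TAZ enter the nucleus and bind TEAD factors at target genes. In crowded or rounded cells the Hippo kinases, LATS among them, phosphorylate YAP and keep it in the cytoplasm. SRF has a pair of partner families: the MRTF cofactors, which are released when actin polymerises and drive cytoskeletal genes, and the ternary complex factors, which ERK phosphorylates and which drive immediate early genes such as Fos and Egr1. MEK, the kinase that activates ERK, is inhibited in 2i medium.

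The promoters of 5 genes are shown because each holds a letter match to one or both of these factors. Each is the 250 bases before the RefSeq gene start (GRCm38.p6), 5′ to 3′ on the strand of the gene. Capitals mark the TEAD core GGAATG, read on both strands as GGAATG or CATTCC, and the CArG box, the sequence that SRF binds. The windows are chr3:145649986-145650235 (minus strand) for Ccn1, chr9:102717554-102717803 (plus) for Amotl2, chr14:54577662-54577911 (minus) for Ajuba, chr17:46556163-46556412 (minus) for Srf and chr14:20929148-20929397 (plus) for Vcl.
Ccn1: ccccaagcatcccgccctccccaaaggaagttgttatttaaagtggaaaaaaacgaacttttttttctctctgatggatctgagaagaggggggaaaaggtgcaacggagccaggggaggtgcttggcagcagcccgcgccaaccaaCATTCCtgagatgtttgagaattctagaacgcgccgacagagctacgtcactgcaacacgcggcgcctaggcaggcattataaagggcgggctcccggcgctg
Amotl2: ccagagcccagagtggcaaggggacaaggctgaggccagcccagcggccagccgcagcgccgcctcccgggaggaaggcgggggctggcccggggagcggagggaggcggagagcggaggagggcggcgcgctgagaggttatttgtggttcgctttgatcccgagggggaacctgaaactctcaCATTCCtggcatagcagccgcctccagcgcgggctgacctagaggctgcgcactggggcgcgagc
Ajuba: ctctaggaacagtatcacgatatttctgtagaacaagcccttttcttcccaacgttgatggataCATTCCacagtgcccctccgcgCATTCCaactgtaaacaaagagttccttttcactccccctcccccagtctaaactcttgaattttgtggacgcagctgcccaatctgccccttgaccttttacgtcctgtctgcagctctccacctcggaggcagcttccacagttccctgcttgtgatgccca
Srf: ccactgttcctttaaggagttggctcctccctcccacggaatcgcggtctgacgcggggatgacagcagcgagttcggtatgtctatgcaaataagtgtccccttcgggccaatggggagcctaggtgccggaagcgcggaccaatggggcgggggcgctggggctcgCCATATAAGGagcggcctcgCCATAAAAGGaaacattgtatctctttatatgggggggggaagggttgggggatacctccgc
Vcl: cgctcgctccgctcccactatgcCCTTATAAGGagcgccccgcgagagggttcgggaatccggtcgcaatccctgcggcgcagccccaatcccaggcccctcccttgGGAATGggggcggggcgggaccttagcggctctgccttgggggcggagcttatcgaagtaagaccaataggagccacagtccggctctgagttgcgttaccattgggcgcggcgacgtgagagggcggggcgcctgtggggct

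Ccn1 carried 1 TEAD core, at -103 from its start, and Amotl2 carried 1, at -65. Ajuba carried 2, at -186 and -164. Srf carried 2 CArG boxes, at -82 and -62, and no TEAD core in its window. Vcl carried both kinds, a CArG box at -227 and a TEAD core at -143. The motifs did not overlap. In 32851 RefSeq windows of 300 bases, which run 50 bases past the start, 14.7% held the TEAD core and 1.63% a CArG box. A match is a description of these letters and not a bound site. 7 of the 10 genes matched a window, and Ccn2, Tagln and Actb did not. Of the windows not printed, that of Ankrd1 held 2 TEAD cores, at -210 and -123, and Lats2 had its single core 4 bases past its start.

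The libraries carried the markers of naive embryonic stem cells, and markers of the fibroblasts and smooth muscle in which these genes are best known were low. Total counts ran from 29332436 to 44527534, so that 3 counts, taken as the smallest amount told from 0, equal 0.065 to 0.099 CPM, the count scaled to the library total. All 10 naive markers, Pou5f1, Nanog and Tfcp2l1 among them, were present, at a summed 4606 to 5054 CPM. A list of 10 fibroblast and smooth muscle markers summed to 6.27 to 10.1 CPM, with Dcn absent from the table. Stag3 stood at 24.1, 24.3 and 28.6 CPM in untreated, 22.5, 23.3 and 26.7 CPM in siLuc, and 13.5, 15.2 and 15.6 CPM in siStag3. It was lower in siStag3 than in siLuc (log2 fold change -0.71, SE 0.0722, edgeR adjusted p = 0.00205).

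Per transcript length, the genes spanned a wide range in untreated cells. Actb, cytoplasmic beta-actin, stood at 2919 ± 258 TPM (SD, n = 3), the share of transcripts computed from counts and the longest annotated transcript. The next were Amotl2, an angiomotin-family scaffold that holds YAP at junctions, at 66.8 ± 6.51, and Ajuba, a LIM protein that inhibits LATS kinases, at 65.9 ± 3.29. Vcl, vinculin, which links integrins and cadherins to actin, followed at 46.5 ± 3.09. Ccn1 (32.9 ± 14.3), Srf (30.6 ± 2.65) and Ccn2 (30.3 ± 6.3) could not be ordered within their spread, and neither could Amotl2 and Ajuba. Lats2, a kinase that phosphorylates YAP and is itself induced by it, stood at 1.64 ± 0.272. Tagln, transgelin of smooth muscle, stood at 0.154 ± 0.102. Its raw counts were 6, 2 and 3 in untreated, 0, 0 and 4 in siLuc, and 2, 2 and 7 in siStag3, so no difference was detectable at this depth. Of the sequence behind these levels, 56.7% of the 31-base words of Lats2 are shared with the overlapping gene Gm49361, and 35.1% of those of Actb with other genes, so the counts of both are uncertain. Ccn2, Srf, Vcl and Tagln overlap annotated genes on the opposite strand, and the strand setting of the counting is not given in the sources used here, so reads of the overlaps cannot be told apart.

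**Figure D1:**
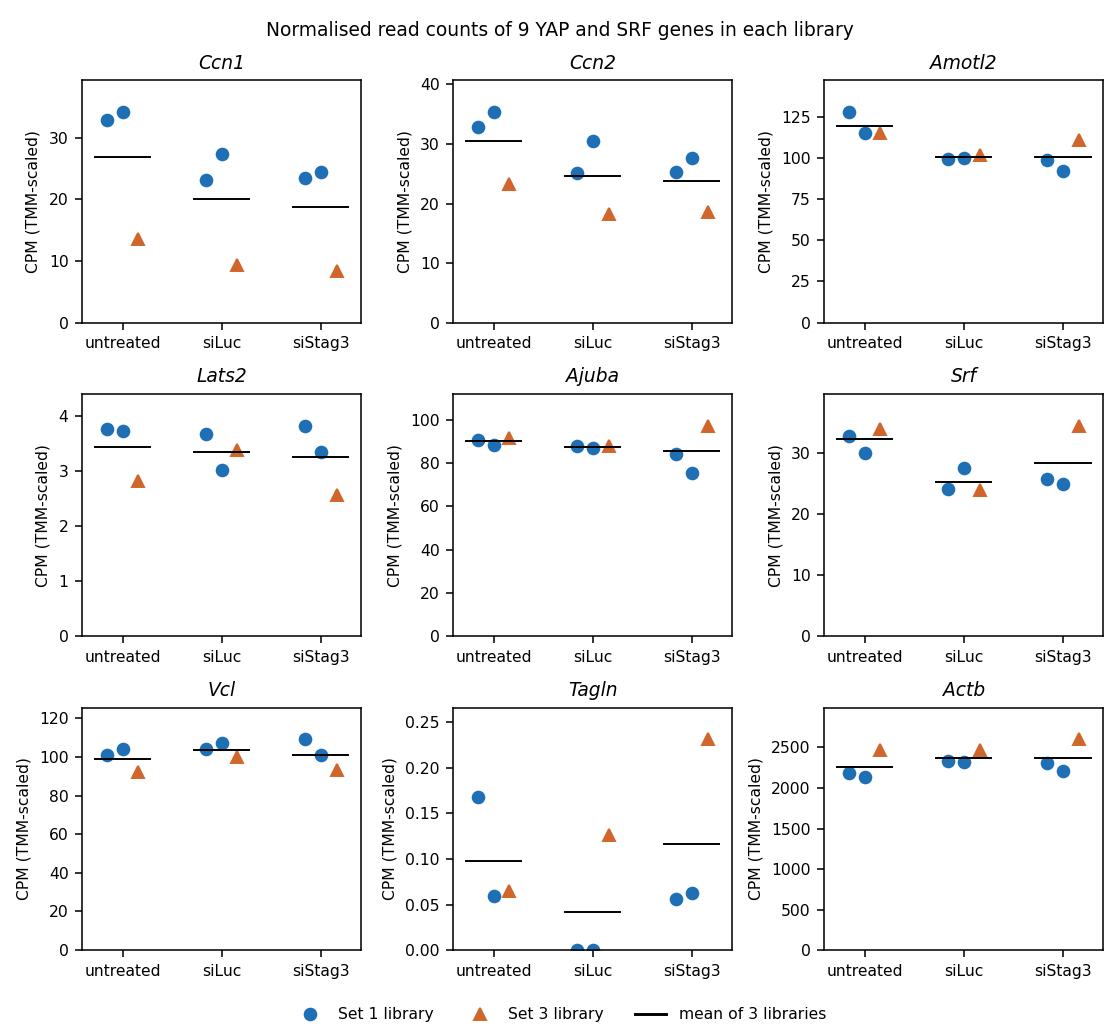
Normalised read counts (CPM, scaled by TMM factors, vertical axes from 0) of the 9 measured genes, with 1 point per library, by group. In Ccn1 and Ccn2 the Set 3 library is the lowest of each group, and the untreated libraries stand above the siRNA libraries of their own set.

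Ccn1 and Ccn2 encode secreted matricellular proteins, CYR61 and CTGF, and are the most used readouts of YAP. Ccn1 (ENSMUSG00000028195) stood at 32.8, 34.2 and 13.5 CPM in untreated (Set 1 experiment 1, Set 1 experiment 3, Set 3 experiment 5). It stood at 23.2, 27.4 and 9.39 CPM in siLuc (Set 1 experiment 1, Set 1 experiment 3, Set 3 experiment 1). It stood at 23.4, 24.5 and 8.38 CPM in siStag3 (the same order of libraries as untreated). The groups overlapped, because in each of them the Set 3 library was below both Set 1 libraries. Within a set, all siRNA libraries lay below the untreated libraries, while siLuc and siStag3 overlapped in Set 1. Ccn2 (ENSMUSG00000019997) stood, in the same orders, at 32.8, 35.4 and 23.3 CPM in untreated, 25.1, 30.5 and 18.3 CPM in siLuc, and 25.3, 27.7 and 18.6 CPM in siStag3. Again all siRNA libraries lay below the untreated libraries of their set.

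The first comparison set siLuc against untreated, cells transfected with the control siRNA against cells that were not. The labels give 200000 cells seeded and 48 hours for the siRNA cells and neither value for untreated. Transfection, seeding and time in culture therefore cannot be told apart. Ccn1 fell to 73.7% of its untreated level (log2 fold change -0.44, SE 0.0798, edgeR adjusted p = 0.0108) and Ccn2 to 80.8% (-0.31, SE 0.0806, edgeR adjusted p = 0.0493). The fit carried the set as an additive term. These were the 2 of 8 tested genes called, both lower, against 4.2% of all 14246 genes called in either direction, 1.65% higher and 2.55% lower. Within Set 1 the log2 differences were -0.41 for Ccn1 and -0.30 for Ccn2. Within Set 3 they were -0.52 and -0.34, from 1 library a group, of experiment 5 in untreated and experiment 1 in siLuc. Amotl2, at 128, 115 and 115 CPM in untreated and 99.3, 100.1 and 102 CPM in siLuc, had groups that did not overlap and missed the threshold (-0.25, SE 0.0691, edgeR adjusted p = 0.0571). Srf did not overlap either, at 32.8, 30.1 and 33.9 against 24.1, 27.6 and 24 CPM, and also missed it (-0.35, SE 0.0998, edgeR adjusted p = 0.0628). Lats2, Ajuba, Vcl and Actb had log2 fold changes between -0.04 and 0.07, with edgeR adjusted p of 0.385 or more.

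The siLuc calls were close to the threshold. Without the set term the log2 fold changes were much the same, at -0.42 for Ccn1 and -0.30 for Ccn2, but no member was called (edgeR adjusted p = 0.751 and 0.641), and 0.00702% of all genes were. The call of Ccn1 was lost without the untreated Set 3 library (edgeR adjusted p = 0.0819), without siLuc Set 1 experiment 1 (0.0708) and without siLuc Set 3 (0.0503). The call of Ccn2 was lost without any 1 of 7 of the 9 libraries, and kept without siLuc Set 1 experiment 3 or siStag3 Set 3. Leaving out siStag3 Set 3 brought Amotl2 (edgeR adjusted p = 0.00974) and Srf (0.00589) past the threshold. The share of mitochondrial counts also differed between these groups, at 3.48% to 5.33% in untreated and 5.98% to 6.73% in siLuc, and its part in the result was not tested.

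In siStag3 against untreated, a comparison that shares the untreated libraries with the previous one, Ccn1 fell to 68.6% (-0.54, SE 0.0803, edgeR adjusted p = 0.00266) and Ccn2 to 78.4% (-0.35, SE 0.0809, edgeR adjusted p = 0.0361). Again 2 of 8 tested genes were called, both lower, beside 2.53% of all genes in either direction, 1.07% higher and 1.46% lower. Within Set 1 the log2 differences were -0.49 for Ccn1 and -0.36 for Ccn2, and within Set 3 they were -0.68 and -0.32. The Ccn1 call held without each library in turn and was lost without the set term (edgeR adjusted p = 0.93), where 0.014% of all genes were called. The Ccn2 call was lost without that term (0.917) and without each of the 3 untreated libraries or either siStag3 Set 1 library (0.0604 to 0.255). Mitochondrial counts took 4.1% to 6.78% of the siStag3 libraries.

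For Amotl2 and Srf the values of each set are given apart, and no test showed the sets to differ (interaction edgeR adjusted p = 0.53 and 0.535). Amotl2 stood at 99, 91.9 and 111 CPM in siStag3, against 128, 115 and 115 CPM in untreated, so that the groups did not overlap. Its log2 difference was -0.34 within Set 1 and -0.05 within Set 3, and the fit gave -0.25 (SE 0.0691, edgeR adjusted p = 0.0831). Srf stood at 25.7, 25 and 34.5 CPM in siStag3, with the Set 3 library above all 3 untreated libraries. Its log2 difference was -0.31 within Set 1 and 0.02 within Set 3. With Set 1 libraries only, Amotl2 (edgeR adjusted p = 0.018) and Srf (0.0489) were called lower beside Ccn1 and Ccn2.

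The comparison that isolates Stag3, siStag3 against siLuc, gave no call among the 8 genes, where 0.0281% of all genes were called in either direction (4 of 14246, 0.014% higher and 0.014% lower, with 1122 at an unadjusted p under 0.05). DESeq2 called 22 genes and none of the 8. The log2 fold change was -0.10 (SE 0.082) for Ccn1, -0.04 (SE 0.0821) for Ccn2, 0.00 (SE 0.0694) for Amotl2 and 0.15 (SE 0.101) for Srf. Ajuba was lowest in the library siStag3 Set 1 experiment 3, at 75.3 CPM, and highest in siStag3 Set 3, at 97.2 CPM, whereas siLuc ran only from 86.9 to 88 CPM. Vcl and Actb had log2 fold changes of -0.04 (SE 0.0559) and -0.01 (SE 0.0528). In Set 3 the siLuc library is of experiment 1 and the siStag3 library of experiment 5. There a difference between these groups cannot be told apart from one between experiments. The largest disagreement between sets was that of Srf, at -0.03 in Set 1 and 0.52 in Set 3. The test of that difference gave 0.55 (SE 0.146, edgeR adjusted p = 0.0829), in a test that called 1.12% of all genes and none of the 8. For the siLuc difference from untreated it called 0.014% of genes, for that of siStag3 it called 0.00702%, and none of the 8 was among them.

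**Figure D2:**
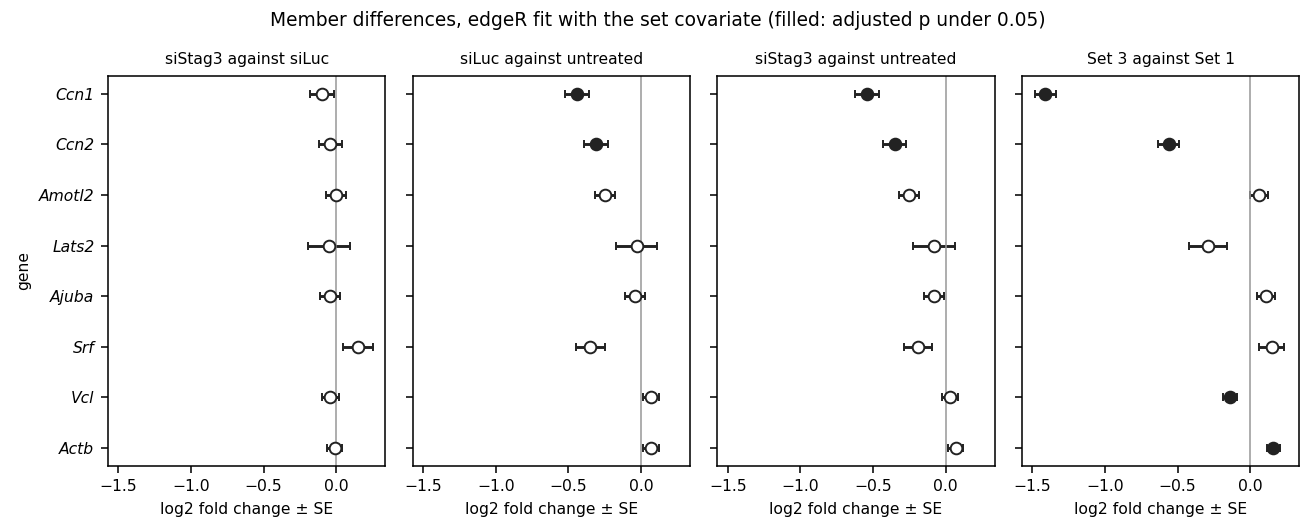
Log2 fold change ± SE (horizontal axes) of the 8 tested genes in the 3 group comparisons and in Set 3 against Set 1, with filled points at an adjusted p under 0.05. Ccn1 and Ccn2 lie left of 0 in both comparisons with untreated and furthest left in the set comparison, while all 8 lie near 0 in siStag3 against siLuc.

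Ccn1 differed more between the sets than in any comparison of groups, and Ccn2 did too. Over the groups, Ccn1 averaged 27.6 ± 4.85 CPM in the 6 Set 1 libraries and 10.4 ± 2.71 CPM in the 3 Set 3 libraries. Set 3 stood at 40.3% of Set 1 in untreated, 37.1% in siLuc and 35.1% in siStag3, and the ranges of the sets did not overlap. The fitted Set 3 minus Set 1 value was -1.41 on the log2 scale (SE 0.075, edgeR adjusted p = 5.10e-08), the 8th smallest p of 14246 genes and the 87th lowest fold change. Ccn2 averaged 29.5 ± 4.16 CPM in Set 1 and 20 ± 2.78 CPM in Set 3, again without overlap (-0.56, SE 0.0721, edgeR adjusted p = 7.46e-05). What the sets stand for is not labelled, so density, day, passage and library batch cannot be told apart.

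4 of the 8 tested genes differed between the sets, beside 42.7% of all genes (21.4% higher and 21.2% lower), so the count is near the background. Vcl was lower in Set 3, at 95 ± 4.33 against 104 ± 3.38 CPM (-0.14, SE 0.0486, edgeR adjusted p = 0.0368), and Actb was higher, at 2512 ± 74.9 against 2248 ± 85 CPM (0.16, SE 0.0455, edgeR adjusted p = 0.0119). Vcl lost its call without any 1 of 6 of the libraries, the highest being edgeR adjusted p = 0.149 without untreated Set 3, and under scaling by total count (-0.08, edgeR adjusted p = 0.179). Actb lost its call without untreated Set 3 (0.0849) and without siStag3 Set 3 (0.0719). Lats2, at 3.55 ± 0.315 against 2.92 ± 0.408 CPM, missed the threshold (-0.29, SE 0.128, edgeR adjusted p = 0.0856) and passed it without siLuc Set 3 (0.0227) or siLuc Set 1 experiment 3 (0.0394). Srf (0.15, edgeR adjusted p = 0.166) passed it without siLuc Set 3 (0.28, 0.0195). Amotl2 (0.06) and Ajuba (0.11) were not called. So 2 of the 5 tested YAP targets were called lower in this fit, and the other 3 were not called. After a correction for GC content all 5 were called lower, with Amotl2 (-0.13, edgeR adjusted p = 0.00957) and Ajuba (-0.12, 0.0165) changed in sign, Lats2 at -0.33 (0.0415) and a median of -0.33 for the 5.

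In the wider YAP list, 2 of 14 other tested targets rose in siLuc against untreated and none fell, beside 1.65% of all genes called higher and 2.55% lower, with a median log2 fold change of 0.15 against -0.002 over all genes. They were Gadd45a, a stress-induced growth arrest gene (0.52, edgeR adjusted p = 0.0175), and Igfbp3, a secreted IGF-binding protein (0.46, edgeR adjusted p = 0.0186). Of 25 Hippo pathway genes and TEAD factors, none rose and 2 fell: Vgll4, which competes with YAP for TEAD (-0.46, edgeR adjusted p = 0.0327), and Frmd6 (-0.25, edgeR adjusted p = 0.0359). That list had 0 calls with Set 1 libraries only and with the set and experiment block, and 3 higher and 4 lower with the GC correction. In siStag3 against untreated, 1.07% of all genes were called higher and 1.46% lower. There Igfbp3 alone of the 14 was called, higher (0.48, edgeR adjusted p = 0.0142), and 2 of the 25 fell, Vgll4 (-0.50) and Wwc2 (-0.32). In siStag3 against siLuc none of either list was called, and the smallest p-values were those of Ptpn14 (-0.43, edgeR adjusted p = 0.394) and Amotl1 (-0.33, edgeR adjusted p = 0.221).

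Between the sets these lists had calls in both directions, beside 21.4% of all genes higher and 21.2% lower. Of the 14 YAP targets, 2 were higher in Set 3, Nuak2 (0.60) and Igfbp3 (0.53), and 3 were lower, Nt5e (-1.14), Ptpn14 (-0.36) and Myof (-0.17). Of the 25 Hippo genes, 8 were higher and 8 lower, and the list's median was 0.00. The furthest was Mob1b, an activator of LATS (-0.64), and the kinase gene Taok1 was lower too (-0.54). The angiomotin genes parted, Amot higher (0.59) and Amotl1 lower (-0.60), while Tead1 (-0.33) and Wwtr1, which encodes TAZ (-0.25), were lower. The calls named here had an edgeR adjusted p of 0.0137 or less. With the GC correction the Hippo counts became 5 higher and 10 lower, and 1 of the 16 calls changed sign.

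**Figure D3:**
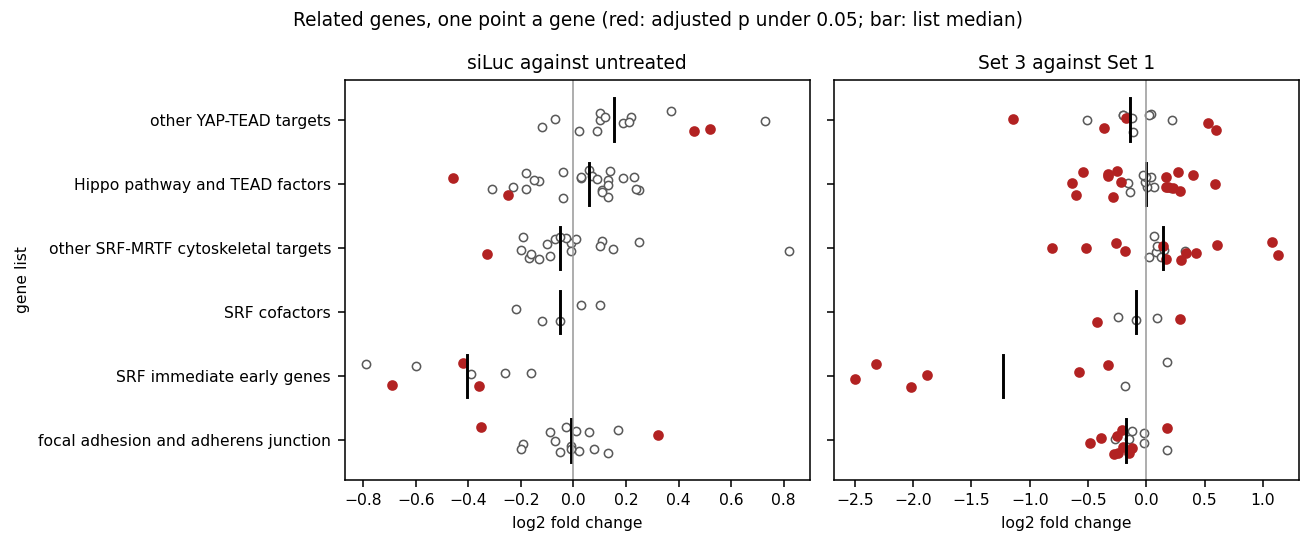
Log2 fold changes (horizontal axes) of the genes in each related list, 1 point a gene, red at an adjusted p under 0.05, with a bar at the list's median. The left panel is siLuc against untreated, where all 8 SRF immediate early genes lie left of 0. The right panel is Set 3 against Set 1, where 7 of them do, at a list median of -1.23.

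The SRF targets fall into a cytoskeletal and an immediate early list. Of 19 other tested cytoskeletal targets of SRF and MRTF, none rose and 1 fell in siLuc against untreated, beside 1.65% and 2.55% of all genes. It was Itga5, the fibronectin receptor subunit (-0.33, edgeR adjusted p = 0.0326). Its call was kept in 10 of 19 alternatives, and the GC correction and Set 1 libraries only were among those that lost it. None was called in the other group comparisons. The smallest p-values there were those of Itga5 in siStag3 against siLuc (0.18, edgeR adjusted p = 0.602) and Myh9 in siStag3 against untreated (-0.20, edgeR adjusted p = 0.17). Between sets 8 were higher in Set 3 and 4 lower, beside 21.4% and 21.2% of all genes, with a median of 0.14, which was 0.02 after the GC correction. The calponin gene Cnn2 rose (1.13, edgeR adjusted p = 5.27e-07), as did the tropomyosin gene Tpm2 (0.61), while the caldesmon gene Cald1 fell (-0.81, edgeR adjusted p = 2.51e-05). Gamma-actin, Actg1, fell (-0.52, edgeR adjusted p = 1.05e-05) where Actb rose (0.16). Of 5 tested SRF cofactors none was called between groups, where the smallest p-values gave Mrtfa -0.22 in siLuc against untreated, Elk4 0.10 in siStag3 against untreated and Elk3 -0.18 in siStag3 against siLuc. Between sets Mrtfa was higher (0.29) and Mrtfb lower (-0.42). The Mrtfb call was kept in 15 of 15 alternatives, that of Mrtfa in 9, with values down to 0.06. Scaling by total count moved the set counts to 12 higher and 3 lower among the 19.

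Of the immediate early genes, 6 of the 8 tested were called lower in Set 3, as Ccn1 was. Egr1, a zinc-finger factor induced through ERK and SRF, stood at 171, 173 and 44.4 CPM in untreated, 92.8, 123 and 26.9 CPM in siLuc, and 106, 118 and 25.8 CPM in siStag3, in the library order given for Ccn1. For Egr1 the Set 3 library was the lowest of every group. 6 genes fell between sets and none rose, with a list median of -1.23: Egr2 (-2.50), Fosb (-2.32), Egr1 (-2.02), Fos (-1.88), Junb (-0.58) and Ier2 (-0.33), beside 21.2% of all genes called lower. The other 2 were not called, Nr4a1 (0.18), whose highest library was siStag3 Set 3 at 46.6 CPM, and Arc (-0.18). Fos stood at 47.7, 49.4 and 11.4 CPM in untreated. In siLuc against untreated 3 of the 8 fell, beside 2.55% of all genes, Egr1 (-0.69, edgeR adjusted p = 0.00162), Ier2 (-0.42, edgeR adjusted p = 0.00347) and Junb (-0.36, edgeR adjusted p = 0.0307), with a list median of -0.41. In siStag3 against untreated 2 fell, beside 1.46% of all genes, Egr1 (-0.67, edgeR adjusted p = 0.00182) and Ier2 (-0.30, edgeR adjusted p = 0.0227). None was called in siStag3 against siLuc, where Arc had the smallest p (0.22, edgeR adjusted p = 0.566). After the GC correction 1 of the 3 siLuc calls and none of the 2 siStag3 calls was kept, and Egr1 was lost in both.

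**Figure D4:**
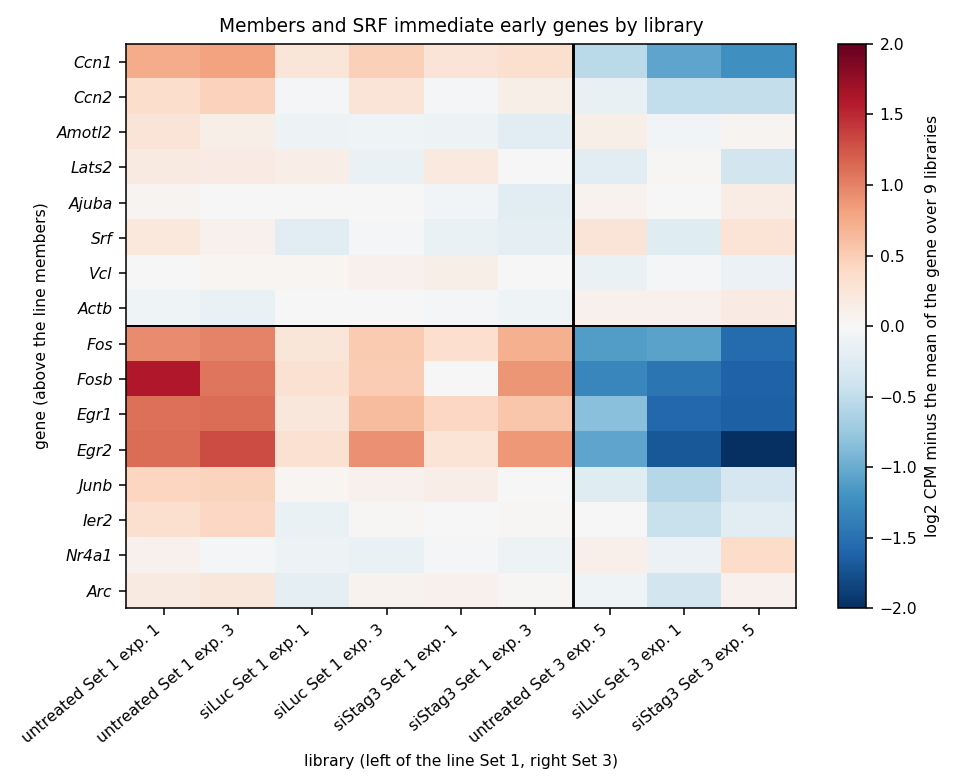
Log2 CPM of the members and SRF immediate early genes in each library, minus the mean of the gene over 9 libraries, with Set 1 libraries left of the vertical line and Set 3 libraries right of it. Ccn1 runs from 0.80 in untreated Set 1 experiment 3 to -1.22 in siStag3 Set 3, and Fos, Fosb, Egr1 and Egr2 share its low right-hand columns.

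Adhesion genes act with vinculin at focal adhesions and adherens junctions. Of 16 tested, beside 4.2% of all genes called, 1 rose in siLuc against untreated, Tjp1 (0.32, edgeR adjusted p = 0.0312), and 1 fell, Tln1, which encodes the vinculin-binding protein talin (-0.35, edgeR adjusted p = 0.0307). With Set 1 libraries only neither was called. None was called in the other group comparisons, where the smallest p-values were those of Tjp1 in siStag3 against siLuc (-0.23) and Tln1 in siStag3 against untreated (-0.30, edgeR adjusted p = 0.0612). Between sets 1 was higher and 9 lower, beside 21.4% and 21.2% of all genes, with a median of -0.17 beside a Vcl change of -0.14. The lower genes included Tjp1 (-0.48, edgeR adjusted p = 9.29e-05), the integrin gene Itgav (-0.39, edgeR adjusted p = 0.000908), Lims1 (-0.28) and the catenin gene Ctnnd1 (-0.25). Scaling by total count left 2 higher and 5 lower.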

How the data were processed

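RNA of 9 libraries was analysed, 3 each of untreated, siLuc and siStag3 cells. The authors deposited a table of whole-number counts per gene for all 9. Per the submitters' processing notes, FastQC, Salmon and DESeq2 were used with GRCm39. Their roles and versions are not given in the sources used here, and since Salmon estimates counts, the deposited counts may be rounded estimates. Per the labels' protocols, libraries came from total RNA with a KAPA mRNA kit. Column names gave group, set and experiment, not the replicate number, so columns were assigned to groups.

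The genes and gene lists were chosen with earlier results of these data known, as was the set term in the fit. All 9 libraries entered 1 edgeR 4.0.16 fit in R 4.3.3 (TMM factors, filterByExpr, robust quasi-likelihood F test) with group and set as additive terms. P-values are two-sided, with Benjamini-Hochberg adjustment across the 14246 genes that passed the filter, and a gene was called at an adjusted p under 0.05. The standard error (SE) is the absolute log2 fold change divided by the square root of F. The biological coefficient of variation was 7.62% with the set term and 14.6% without it. CPM values are TMM-scaled, and log2 CPM used a prior count of 2. Differences between sets in a contrast came from an interaction fit with 3 residual degrees of freedom. With 1 Set 3 library a group, these all come from Set 1, so the p-values of that fit hold no spread within Set 3. The labels speak of biological replicates without saying whether they were separate cultures, so the p-values of the main fit measure the spread between its 9 libraries. No replicate pair was a duplicate (chi-square per degree of freedom 4.63 to 80.4). The floor of 3 counts covers counting error only, whereas the SE and SD include the spread between libraries. Rows with no symbol (8, 0.0156% of counts) were kept out of the named genes.

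All 10 chosen genes and Stag3 are named. From each other list, up to 4 called genes whose mean was 1 log2 CPM or more are named per comparison, by size, or the smallest p where none passed. Egr2, Nt5e, Tead1, Wwtr1, Nr4a1, Col1a1 and Dab2, and Ier2 and Arc between sets, fall outside that rule and were named after their values were seen. GC content, length and shared 31-base words came from GENCODE M21 transcripts, where 16604 of the table's 16636 IDs were found, and promoters from RefSeq GRCm38.p6. The fit was tried on simulated data for siStag3 against siLuc (14147 genes). It found 95.9% of 98 genes with a simulated log2 change of 1 and 76% of 100 with one of 0.5. There were 9 false calls among 179. Every simulated gene had the same biological coefficient of variation, 7.62%, and no difference between experiments. The real genes do not share 1 such value, so these shares do not measure what the fit finds in the real data. Alternatives were no set term, DESeq2 size factors, total-count scaling, DESeq2 1.42.0, no low-count filter, a minimum mean of 50 counts, a GC correction over 20 bins, Set 1 libraries only, only the 6 libraries compared and each library left out. A set and experiment block, in which all Set 3 libraries formed 1 block, and the alternatives of the interaction fit were added after seeing the data.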

Additional observations from a re-analysis of the deposited data

Results flagged for a closer look

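Among the related genes named by list, 2 had a siStag3 against siLuc difference that itself differed between Set 3 and Set 1 by an interaction term. Neither is one of the 10 genes. For Taok1, a kinase upstream of the Hippo kinases, the Set 3 minus Set 1 difference was -0.81 on the log2 scale (edgeR adjusted p = 0.0193). Taok1 stood at 148 and 155 CPM in siLuc Set 1, 134 CPM in siLuc Set 3, 158 and 159 CPM in siStag3 Set 1 and 80 CPM in siStag3 Set 3. For Itgav, an integrin subunit, the difference was -0.49 (edgeR adjusted p = 0.0492), with 78 CPM in siLuc Set 3 and 56.3 CPM in siStag3 Set 3. Untreated libraries stood at 133, 146 and 98.7 CPM for Taok1 and at 85.2, 83.1 and 65 CPM for Itgav, with Set 3 last. Both differences rest on 1 Set 3 library a group. That library is of experiment 1 in siLuc and of experiment 5 in siStag3 and untreated, so siRNA and experiment cannot be told apart. After the GC correction neither passed, at -0.42 (edgeR adjusted p = 0.073) and -0.28 (edgeR adjusted p = 0.365). Itgav also missed the threshold under DESeq2 size factors (0.0516), total-count scaling (0.0714) and a mean of at least 50 counts (0.0501).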

How the results depend on the processing

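The set contrast of Ccn1 and Ccn2 kept its direction and its call in 15 of 15 alternatives, at -1.49 to -1.36 for Ccn1 and -0.58 to -0.50 for Ccn2. The calls of Ccn1 and Ccn2 against untreated depended on the set term: without it 0 of the 8 genes were called in either comparison, and 0, 1 and 2 of all genes in siStag3 against siLuc, siLuc against untreated and siStag3 against untreated, beside 4, 598 and 361 with it. DESeq2 called 22 and 1328 genes in the first 2 and 4 of the 8 genes in siLuc against untreated. The GC correction gave 51, 1016 and 932 genes, and 7 of the 8 genes between sets, where the main fit gave 4. Under it Amotl2 (-0.13, edgeR adjusted p = 0.00957), Ajuba (-0.12, 0.0165) and Tubb3 (-0.13, 0.00927) turned lower in Set 3 and were called. Set 1 libraries only gave 298 genes and 1 of the 8 in siLuc against untreated, and 949 genes and 4 of the 8 in siStag3 against untreated. Only the 6 libraries compared gave 1 gene in siStag3 against siLuc, and 1801 genes and 4 of the 8 in siLuc against untreated. No paired analysis was possible by replicate number, because replicate numbers stand in the titles but not in the column names. The columns carry set and experiment numbers. An added fit was blocked on the set and, within Set 1 only, on the experiment, with all Set 3 libraries as 1 block. It gave 4, 317 and 268 genes in the 3 group comparisons and changed no call of the 8 genes. The Set 3 experiment numbers, which differ between the groups, were not blocked, so that fit does not separate group from experiment there. Leaving out each library in turn gave 0 to 4 genes in siStag3 against siLuc (0 of the 8 throughout), 111 to 2458 in siLuc against untreated (0 to 4 of the 8), 78 to 1591 in siStag3 against untreated (1 to 4) and 4162 to 6355 between sets (2 to 6). The Set 3 minus Set 1 difference of siStag3 against siLuc had 160 calls, and 85, 86, 24, 94 and 386 under DESeq2 size factors, total-count scaling, the GC correction, a mean of at least 50 counts and DESeq2. That of siLuc against untreated had 2, and 11 with the GC correction and 8 with DESeq2, and that of siStag3 against untreated had 1, and 2 with each. Total-count scaling moved the share of calls that were higher from 39.3% to 21.2% in siLuc against untreated, from 42.4% to 28.1% in siStag3 against untreated and from 50.2% to 61.7% between sets. The causes of these changes were not tested. With 1 Set 3 library a group, differences within Set 3 have no replicate. Tagln lies under what this depth can compare, and Ankrd1 has no row.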

Other observations

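The genes whose pattern over the 9 libraries lay nearest to each member, by the root mean square difference of mean-centred log2 CPM among 11228 genes, were in all 8 cases genes outside the set of 10, and the nearest member ranked from 159 to 4356. Nearest to Ccn1 was Cspg4b, at a distance of 0.134 where Ccn1 itself varied by 0.71. Cspg4b stood at 46, 41.4 and 16.3 CPM in untreated, 29.8, 29.3 and 10.1 CPM in siLuc, and 29, 25.5 and 10.6 CPM in siStag3. The nearest member to Ccn1 was Ccn2, at 0.417 and rank 159. Nearest to Ccn2 was Lcp1, which encodes the actin-bundling protein plastin 2, at 0.0663, and the nearest member was Lats2, at rank 1586. The nearest genes to the others were Wdr62 for Amotl2 (0.0437), Arl13b for Lats2 (0.0837), Usp10 for Ajuba (0.0246), Gpn2 for Srf (0.0388), Srrm1 for Vcl (0.0273) and Ddx47 for Actb (0.0238). The distances share libraries, set and depth, and are a description.

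Markers of other cell types stood beside these values, and their calls are to be read beside the share of all genes called. That share was 42.7% between sets, 4.2% in siLuc against untreated and 2.53% in siStag3 against untreated. The 10 naive markers summed to 4861 to 5054 CPM in Set 1 and 4606 to 4712 CPM in Set 3, with Nanog (-0.18) and Tfcp2l1 (-0.29) lower and Klf4 (0.18) higher in Set 3. In siStag3 against untreated Dppa3 was lower (-0.86, edgeR adjusted p = 0.000781) and Utf1 higher (0.51, edgeR adjusted p = 0.0428). The fibroblast and smooth muscle list summed to 8.01 to 10.1 CPM in Set 1 and 6.27 to 6.86 CPM in Set 3, with Des as its highest gene. Of its 5 tested genes, Col1a1 (-1.30) and Des (-0.64) were lower in Set 3. The endoderm list summed to 322 to 368 CPM, most of it Sparc, with Lama1 higher (0.35) and Dab2 (-0.91) and Col4a1 (-0.30) lower in Set 3. The Col4a1 call was kept in only 4 of 15 alternatives. Dab2 was low, at 0.231 to 0.954 CPM and at most 34 counts. The mesoderm list summed to 6.81 to 10.3 CPM, with T lower in siStag3 than in untreated (-1.06, edgeR adjusted p = 0.0294). T was higher (0.81) and Eomes lower (-0.49) in Set 3. The neuroectoderm list summed to 126 to 165 CPM, most of it Tubb3, and Pax6 was higher in siLuc than in untreated (0.59, edgeR adjusted p = 0.0316). Where none of a marker list passed in a group comparison, the smallest p-values belonged in siStag3 against siLuc to Dppa3 (-0.52), Lum (-1.06), Pdgfra (-0.41), Eomes (-0.33) and Tubb3 (0.15). In siLuc against untreated they belonged to Utf1 (0.44), Des (0.23), Lama1 (-0.25) and T (-0.77), and in siStag3 against untreated to Lum (-1.46), Lama1 (-0.31) and Nes (0.28). Lum was near the floor, at 0 to 0.443 CPM and at most 15 counts in a library. The part of these markers in the Ccn1 and Ccn2 differences was not tested.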
